A study of Drosophila melanogaster with 4 samples.

Results

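The regions described here are the H3K9me1 clusters that start in the 2 Mb at the centromeric end of 4 long chromosome arms of Drosophila melanogaster. The intervals are X from 20422828, 2L from 21011545, 3L from 22543558, and 3R up to 2000000 (FlyBase release 5, per the file headers, counted from 1). Distances are counted from the end of the assembled arm sequence, not from the centromere itself. H3K9me1 is histone H3 with 1 methyl group on lysine 9. A cluster is a region the authors called as significantly enriched in chromatin immunoprecipitation followed by sequencing (ChIP-seq). The members were chosen by position alone, from the combined list of the replicate set: 1023 of its 13114 clusters, with 268 on X, 254 on 2L, 244 on 3L and 257 on 3R. The lists called in single replicates held 491 of 5480 clusters (replicate 1) and 590 of 6062 (replicate 2) in the same intervals. Together the 4 intervals span 8 Mb, 8.17% of the length of these arms.

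The material was whole wild-type Oregon-R embryos aged 14 to 16 h, fixed in 1.8% formaldehyde. Antibody from a new lot was used for the 2 ChIP samples, and 2 inputs of unprecipitated chromatin were the controls of the ChIP lists of the same number. Whole embryos mix all tissues, so a strong mark in few cells and a weak mark in many cannot be told apart. The labels leave unsaid if the 2 replicates are separate collections of embryos, and their spread may be technical only. Library depths are unknown, and input values were not analysed here.

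Di- and trimethylation of H3 lysine 9 are hallmarks of heterochromatin, the compact chromatin rich in repeats and transposon remnants that surrounds the centromeres. In Drosophila methyl groups on this lysine are placed by the methyltransferases Su(var)3-9, Eggless and G9a. Heterochromatin protein HP1a binds the di- and trimethylated forms, and the monomethyl form is a step on the way to them. The inner ends of the assembled arms are where the gene-rich euchromatin passes into this pericentric heterochromatin.

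On the 3 autosomal arms, H3K9me1 clusters covered 1.81- to 2.61-fold more of the proximal 2 Mb than of the remainder of the arm, and on X the replicates lay on both sides of no difference. On 2L, clusters covered 17.3% of the proximal bases in replicate 1 and 22.0% in replicate 2, against 6.80% and 8.18% of the rest of the arm. The values on 3R were 13.9% and 16.4% against 6.16% and 6.91%, and those on 3L 12.8% and 16.9% against 7.89% and 8.48%. On each of these 3 arms the proximal value of the lower replicate lay above the rest-of-arm value of the higher one. On X the proximal values were 11.9% and 20.4% and those of the rest 14.9% and 17.8%, so replicate 1 was lower in the proximal 2 Mb and replicate 2 higher.

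The ratio of proximal to rest coverage was 2.61 ± 0.11 on 2L, 2.32 ± 0.08 on 3R, 1.81 ± 0.26 on 3L and 0.97 ± 0.25 on X (SD, n = 2). The replicate values of neighbours in this order did not overlap. The coverage levels themselves were 19.6% ± 3.4 on 2L, 16.1% ± 6.0 on X, 15.2% ± 1.8 on 3R and 14.9% ± 2.9 on 3L. Both replicates of 2L lay above those of 3R and 3L, and the values of X, 3R and 3L overlapped. The rest of the arm was covered at 16.3% ± 2.0 on X, and at 8.18% ± 0.42 on 3L, 7.49% ± 0.98 on 2L and 6.54% ± 0.53 on 3R. With 2 samples the exact sign-flip permutation test, two-sided, gave p = 0.5 for 2L, 3L and 3R, the smallest value it can give, and p = 1 for X. The proximal 2 Mb make up 8.69% of 2L and held 19.4% and 20.4% of its covered bases in replicates 1 and 2. On 3R, 7.17% of the arm held 14.9% and 15.5%, and on 3L, 8.15% of the arm held 12.6% and 15.0%.

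**Figure D1:**
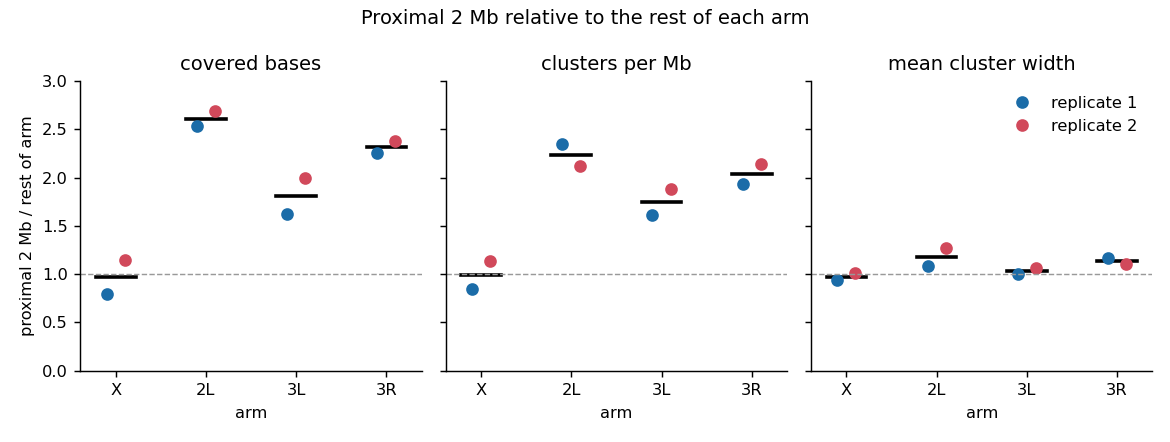
Proximal 2 Mb divided by the rest of the same arm, for covered bases, clusters per Mb and mean cluster width (y axis, a ratio without unit; points are the 2 replicates, black lines their mean, the dashed line is 1). Covered bases and cluster density lie well above 1 on 2L, 3L and 3R in both replicates, mean width at 1.01 to 1.27, and X lies on both sides of 1 in all 3 measures.

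In the replicate lists the autosomal excess consisted mainly of more clusters and less of wider ones. Clusters per Mb on 2L numbered 74 and 78 in the proximal 2 Mb, against 31.6 and 36.8 in the rest. On 3R they were 56 and 67 against 29.0 and 31.3, and on 3L 61 and 69.5 against 37.8 and 36.9. The density ratios were 2.23 ± 0.16 on 2L, 2.04 ± 0.15 on 3R and 1.75 ± 0.19 on 3L (SD, n = 2). The ratios of mean width were 1.17 ± 0.13, 1.14 ± 0.04 and 1.03 ± 0.04. In the combined list, density and mean width contributed more evenly, with ratios of 1.49 and 1.41 on 2L, 1.60 and 1.19 on 3R, and 1.35 and 1.25 on 3L. On X the density in the replicates was 54.5 and 80.5 per Mb against 64.4 and 71.0.

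On the autosomal arms closer packing also showed in the spacing. The median gap between neighbouring clusters on 2L was 4496 and 4165 bp in the proximal 2 Mb of replicates 1 and 2, against 12856 and 12015 bp in the rest of the arm. On 3R it was 6983 and 7051 bp against 12258 and 14615 bp, and on 3L 6114 and 5698.5 bp against 11206 and 12719 bp. On X, too, the median gap was shorter in the proximal 2 Mb in both replicates, at 6096.5 and 3392 bp against 6633.5 and 5747 bp. In replicate 1 this went with fewer clusters per Mb than in the rest of X, 54.5 against 64.4. A median gap does not reflect the few longest gaps, so on X it does not by itself show closer packing. Clusters of the proximal 2 Mb of all 4 arms had median widths of 1894 and 2010 bp, close to the 1866 and 1932 bp of the rest.

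Coverage was next followed in 100 kb windows outward from the centromeric end of each arm. A window was counted as raised where both replicates reached at least 2-fold the rest of the same arm. Of all 978 windows of the 4 arms, 9.00% were raised by this rule. In the proximal 2 Mb, 11 of 20 windows were raised on 2L, 8 on 3R, 6 on 3L and 1 on X, together 26 of 80 (32.5%). The rule asks for more on X, whose rest is covered more. The replicates ranked the windows alike: Spearman's rho over the 20 proximal windows was 0.92 on 3L, 0.88 on X, 0.82 on 2L and 0.66 on 3R, given as a description.

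**Figure D2:**
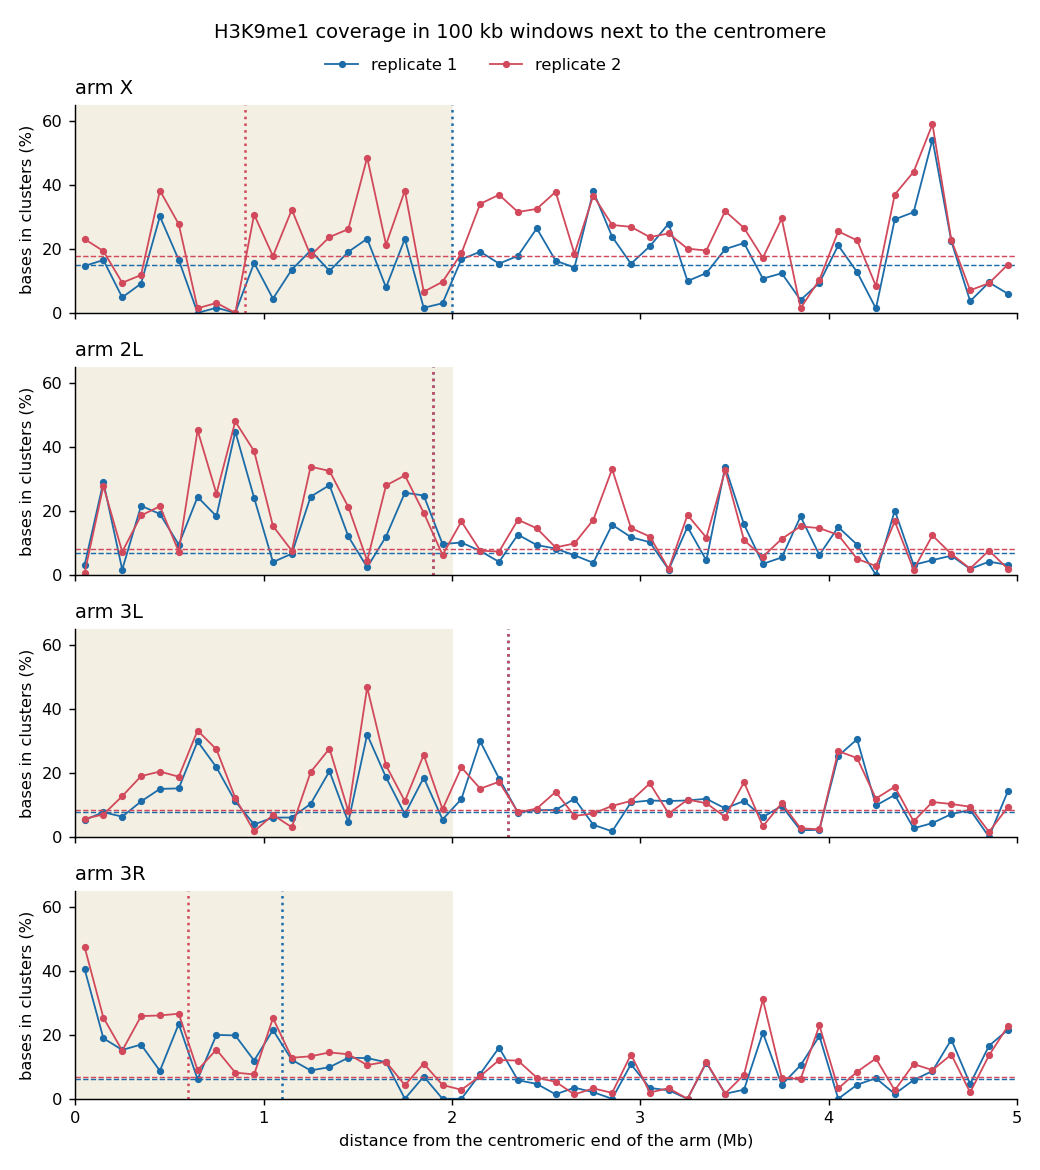
Share of bases inside clusters (y axis, percent) in 100 kb windows against distance from the centromeric end of the arm (x axis, Mb), for replicate 1 (blue) and replicate 2 (red). The shaded part is the proximal 2 Mb, dashed lines mark each replicate's rest-of-arm coverage and dotted lines the fitted step; 3R falls from 40.7% and 47.6% at the end of the arm, while 2L and 3L show separate peaks inside the shaded part.

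Arm 3R showed a gradient from the end of the arm outward. Its highest window was the one at the end of the arm, 3R from 1 to 100000, with 40.7% of bases covered in replicate 1 and 47.6% in replicate 2 (44.2% ± 4.9, SD, n = 2). In steps of 500 kb outward, mean coverage was 24.1% ± 5.6, 14.8% ± 2.1, 14.5% ± 2.0 and 7.29% ± 1.49, the last near the 6.54% ± 0.53 of the rest. Replicate 1 fell at each of these steps. Replicate 2 rose from 13.4% between 0.5 and 1.0 Mb to 16.0% between 1.0 and 1.5 Mb. Coverage tended to fall with distance in both replicates, with Spearman's rho of -0.62 and -0.71 over 20 windows that share a library. The same coefficient lay between -0.0015 and 0.19 on X, 2L and 3L. Within the proximal 2 Mb of 3R, the longest stretch with no cluster in either replicate ran from 1745095 to 1823522 (78428 bp), near the outer limit of the interval. Beyond the limit, the window from 2.0 to 2.1 Mb was covered at 0% and 2.81%. Farther out, coverage rose again, to 11.6% and 14.9% in the 500 kb from 3.5 to 4.0 Mb.

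Arm 2L had a broad raised zone with its peak away from the end of the arm. The window at the very end was almost empty, at 2.94% in replicate 1 and 0.493% in replicate 2, and no replicate cluster lay within 72.8 kb of the end. Coverage peaked between 0.8 and 0.9 Mb from the end, on 2L from 22111545 to 22211544, at 44.8% and 48.0% (46.4% ± 2.2, SD, n = 2). Its mean over the replicates was the highest of the 80 proximal windows. In replicate 2 alone a window of X was higher, at 48.6%. The 300 kb from 0.6 to 0.9 Mb were covered at 29.2% and 39.6%. A gap interrupted the zone from 21416538 to 21529569, where 113032 bp held no cluster in either replicate and 2 in the combined list. Outside it coverage returned to 25.7% and 31.1% between 1.7 and 1.8 Mb, and dropped to 9.64% and 6.22% in the last proximal window. The rise was not confined to the proximal 2 Mb. In steps of 500 kb from 2.0 to 4.0 Mb, coverage stayed above the 6.80% and 8.18% of the rest of the arm in each replicate. From 3.0 to 3.5 Mb it was 13.0% and 15.4%.

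Arm 3L had separate peaks with a trough between them. Its end lay below the remainder of the arm, with 5.27% and 5.65% in the first 100 kb. Coverage rose to 29.9% and 33.3% between 0.6 and 0.7 Mb, and to 32.0% and 46.8% between 1.5 and 1.6 Mb (39.4% ± 10.4, SD, n = 2), the highest proximal window of the arm (22943558 to 23043557). Between them, the 300 kb from 0.9 to 1.2 Mb lay at 5.31% and 3.85%, below the remainder of 3L in each replicate. The last proximal window, at 5.42% and 8.64%, lay below the remainder of 3L in replicate 1 and close to it in replicate 2. Beyond the 2 Mb limit coverage rose again: the window from 2.2 to 2.3 Mb held 18.3% and 17.2%. Farther out, the window from 4.0 to 4.1 Mb held 25.3% and 26.8%.

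On X, clusters left a hole. The 300 kb between 0.6 and 0.9 Mb from the end (21522828 to 21822827) were covered at 0.526% in replicate 1 and 1.50% in replicate 2, with 1 and 3 clusters, and at 6.08% in the combined list with 13. The longest stretch with no replicate cluster, from 21657830 to 21807609, measured 149780 bp and was the longest within the 4 proximal intervals. No assembly gap or repeat map was used here, so the part of unmapped sequence in these gaps was not tested. The most covered window, 20822828 to 20922827, reached 23.2% in replicate 1 and 48.6% in replicate 2 (35.9% ± 18.0, SD, n = 2).

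The replicates differed most in level on proximal X. Coverage of replicate 2 was 1.71-fold that of replicate 1 there and 1.19-fold in the rest of X. On 2L, 3L and 3R the same ratio was 1.27, 1.32 and 1.18 in the proximal 2 Mb, and 1.20, 1.07 and 1.12 in the rest. The Jaccard index (bases covered in both replicates divided by bases covered in either) was 0.344 on proximal X against 0.424 in the rest of X. It was higher in the proximal part on 2L (0.451 against 0.383), 3R (0.418 against 0.363) and 3L (0.384 against 0.371). A Jaccard index tends to be higher where more bases are covered.

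To locate where coverage begins to rise, a single step was fitted by least squares to the 50 windows of the 5 Mb at the centromeric end. A step is always returned. Agreement between the replicates is the only spread given for it, and it does not cover error that the replicates share. On 2L it lay 1.9 Mb from the end in both replicates, with 17.7% and 22.8% on the centromeric side and 9.04% and 11.5% outside. On 3L it lay at 2.3 Mb in both, with 13.7% and 17.1% inside and 9.41% and 10.3% outside. On 3R it lay at 1.1 Mb in replicate 1 and 0.6 Mb in replicate 2, with 18.5% and 27.8% inside and 7.50% and 9.54% outside.

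On X the step went the other way. It lay at 2 Mb in replicate 1 and 0.9 Mb in replicate 2, and the centromeric side was lower, at 11.9% and 14.9% against 18.2% and 25.1%. The steps took up 18.5% and 22.7% of the variance between windows on 2L, 30.5% and 40.8% on 3R, 7.74% and 13.9% on 3L, and 8.67% and 9.69% on X. On 2L the step of the combined list was at 4.1 Mb. On 3R windows of 50 kb moved the mean step from 0.85 to 0.375 Mb, and on 3L clusters at or above the median score moved it from 2.3 to 1.6 Mb.

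Proximal clusters had scores close to those of the rest of their arm. The deposited score is read here as a log2 ratio, for reasons given with the processing. Median scores of the proximal clusters were 0.72 and 0.68 on 2L in replicates 1 and 2, 0.72 and 0.68 on 3L, 0.70 and 0.66 on 3R, and 0.81 and 0.77 on X. Those of the rest of each arm were 0.71 and 0.66, 0.71 and 0.67, 0.70 and 0.67, and 0.83 and 0.78. The difference of proximal minus rest had 1 sign in both replicates on each arm and was small, at -0.019 ± 0.012 on X, 0.012 ± 0.00014 on 2L, 0.0085 ± 0.0026 on 3L and -0.0055 ± 0.0056 on 3R (SD, n = 2). Over all 4 arms the median proximal cluster stood at 1.66-fold and 1.62-fold in replicates 1 and 2. Scores in the combined list ran lower, and its members had a median score of 0.51 (1.43-fold). The sign of the small difference of proximal minus rest changed with the settings on each arm.

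**Figure D3:**
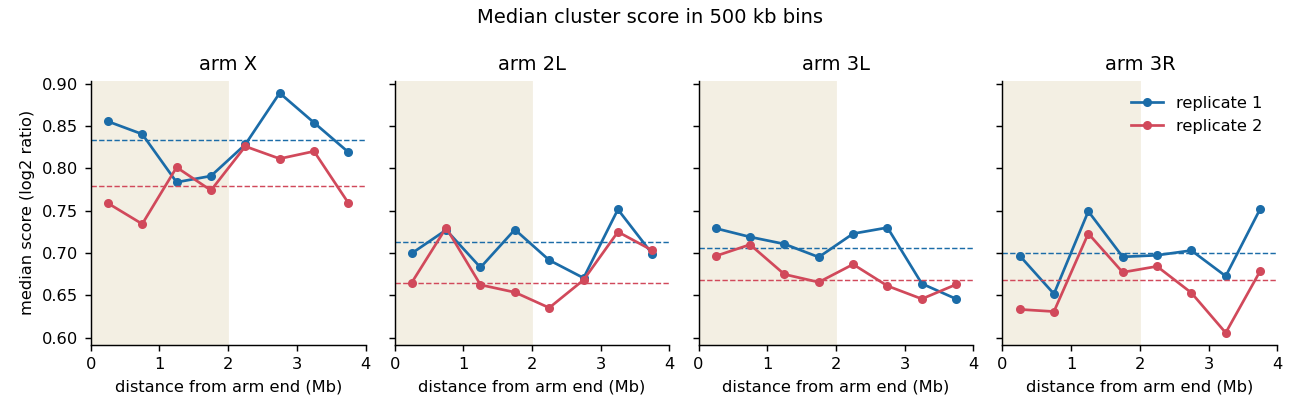
Median cluster score (y axis, log2 ratio; the axis does not start at 0) in 500 kb bins against distance from the centromeric end (x axis, Mb), for replicate 1 (blue) and replicate 2 (red); dashed lines are each replicate's rest-of-arm median and the shaded part is the proximal 2 Mb. The medians run between 0.63 and 0.86 in the proximal bins, with X above the autosomal arms and no common slope toward the centromere.

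Along the proximal 2 Mb, scores showed local differences on single arms. On 3R the bin from 1.0 to 1.5 Mb had the highest medians, 0.75 in replicate 1 and 0.72 in replicate 2, and the bin from 0.5 to 1.0 Mb medians of 0.65 and 0.63. The densest bin of 3R, at the end of the arm, had medians of 0.70 and 0.63. On 2L the bin from 0.5 to 1.0 Mb, which holds the coverage peak, had medians of 0.73 and 0.73, and its clusters had median widths of 2082 and 2561 bp. Across clusters that overlapped one to one between the replicates, Spearman's rho of the scores was 0.59 on proximal 3R (60 pairs), 0.44 on 2L (73 pairs), 0.37 on X (66 pairs) and 0.24 on 3L (52 pairs), as a description.

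The members come from the combined list, which was made from the same samples, so the calls of single replicates within them were counted. Both replicates touched 291 of the 1023 members by at least 1 bp (28.4%, exact 95% binomial interval 25.7% to 31.3%, for counting error only), against 23.8% of the whole combined list. Neither replicate touched 425 members (41.5%), against 47.2% of the whole list. The share touched by both was 32.7% on 2L, 28.3% on 3L, 27.2% on X and 25.7% on 3R. In the rest of these arms it was 21.5%, 22.6%, 29.2% and 20.3%. A further 199 members (19.5%, against 17.1% of the whole list) were touched by replicate 2 alone and 108 (10.6%, against 11.97%) by replicate 1 alone.

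Support went with width. Members touched by both replicates had a median width of 4480 bp and a median score of 0.61, and those touched by neither 1367 bp and 0.47. In the whole list the same medians were 3907 bp and 0.62 for both, and 1344 bp and 0.48 for neither. A wide cluster has more chances of being touched. Of the members, 204 (19.9%, against 23.4% of the whole list) were narrower than 1301 bp, the narrowest cluster in either replicate list.

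**Figure D4:**
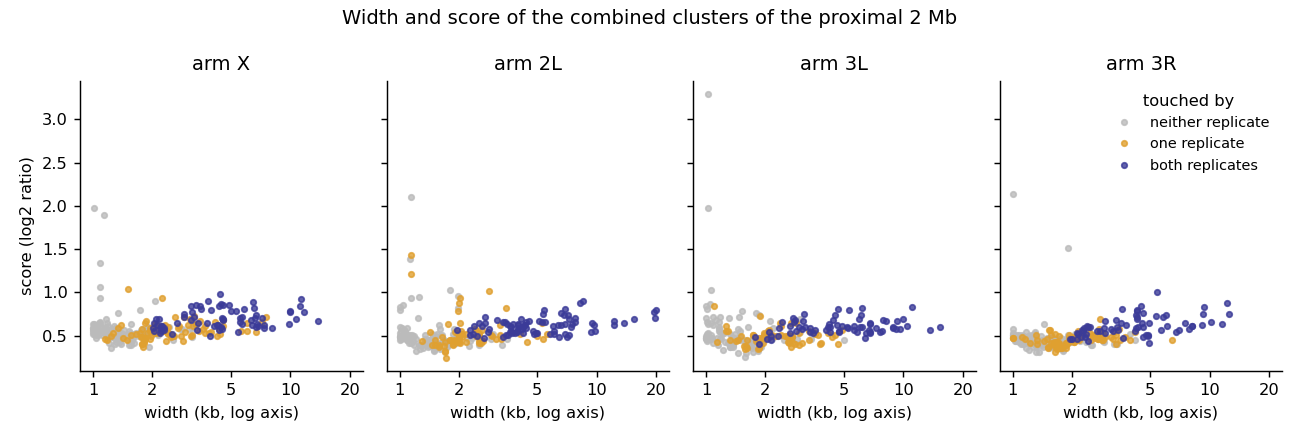
Width (x axis, kb, log axis) against score (y axis, log2 ratio) of each of the 1023 members, by arm, coloured by whether clusters of both, 1 or neither replicate touch it. Members touched by both replicates tend to be wider than the others, and most of the few members with a score of 1 or more are narrow and touched by neither.

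As in the whole combined list, most of the highest scores belonged to clusters that no replicate touched. A score of at least 1, a 2-fold ratio, was reached by 17 members (1.66%, against 2.49% of the whole list), of which 12 were touched by neither replicate and 1 by both. In the whole list 225 of the 326 clusters with such scores were touched by neither and 45 by both. Of the 17 members, 12 were narrower than 1301 bp, the narrowest cluster in either replicate list, and of the 326 clusters 167 were. On each arm the highest-scoring member was touched by neither. The highest of all lay on 3L from 24207054 to 24208071 (1018 bp, score 3.29). Those of 3R (717068 to 718072), 2L (21540853 to 21541994) and X (21405793 to 21406801) scored 2.14, 2.11 and 1.97 and measured 1005, 1142 and 1009 bp. The threshold of 1 was chosen after the scores were seen.

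Wide clusters were more frequent in the proximal 2 Mb of the autosomal arms than in the rest in the combined list. Of the members, 61 were at least 7 kb wide (5.96%, against 3.53% of the whole list). Both replicates touched 59 of these, against 456 of the 463 clusters of this width in the whole list. On 2L, 21 of 254 members (8.27%) reached this width against 2.29% of the rest of the arm. The shares were 6.15% against 2.20% on 3L, 4.28% against 1.49% on 3R, and 5.22% against 5.74% on X. In single replicates such widths were rare. In replicate 1 the proximal 2 Mb held 1 on 2L (0.676% of clusters, against 0.603% of the rest), 0 on 3L (against 0.587%), 3 on 3R (2.68% against 0.399%) and 2 on X (1.83% against 1.29%). In replicate 2 they held 5 on 2L (3.21% against 1.29%), 3 on 3L (2.16% against 1.08%), 4 on 3R (2.99% against 0.740%) and 3 on X (1.86% against 2.28%). Replicate 1 thus showed no clear excess of wide clusters on 2L and none on 3L.

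Scores of single members are those of the combined list unless a replicate is named. In 196 members (19.2%, against 16.1% of the whole list) each replicate covered 50% or more of the length, and these are called supported here. On 3R the highest-scoring of these ran from 305388 to 310783 (5396 bp) with a score of 1.01, and replicates 1 and 2 covered 95.4% and 95.4% of it with 1 cluster each, at scores of 0.97 and 1.11. The second, 3R from 752346 to 764597 (12252 bp, score 0.88), was also the second widest of them, and single clusters covered 94.4% and 98.1% of it. The widest of them lay at the very end of the arm, 3R from 8 to 12586 (12579 bp, score 0.75), and was split into 3 and 2 replicate clusters that covered 72.7% and 93.6%.

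On 2L the highest-scoring supported members were 21145807 to 21154288 (8482 bp, score 0.90) and 22532787 to 22539666 (6880 bp, score 0.81). Replicates 1 and 2 covered 96.2% and 92.8% of the former, and 92.8% and 86.6% of the latter. The widest supported members of the 4 arms were also on 2L, from 22310271 to 22330278 (20008 bp, score 0.80) and from 22182169 to 22201822 (19654 bp, score 0.70). The former was covered at 68.4% by 6 clusters of replicate 1 and at 96.6% by 2 of replicate 2. The latter, inside the most covered window of 2L, was covered at 61.5% and 65.6%.

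On 3L the member from 23003819 to 23014931 (11113 bp) was both the highest-scoring supported one, at 0.83, and the second widest of the supported ones, with 76.8% and 90.7% of it covered. It lay in the most covered window of that arm. The second by score was 23940169 to 23946373 (6205 bp, 0.82), covered at 62.7% and 96.2%. The widest supported one was 23733773 to 23749068 (15296 bp, 0.60), covered at 55.3% and 55.4% in 3 and 4 pieces.

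On X the highest-scoring supported member was the last cluster of the arm, from 22418538 to 22422957 (score 0.98), which runs 130 bp past the recorded end of the sequence. Replicate 1 covered 52.4% of it and replicate 2 all of it. The next by score, X from 20681400 to 20692666 (11267 bp, 0.92), was also the second widest of the supported members and was covered at 67.5% and 94.9%. The widest supported one was X from 21893153 to 21904868 (11716 bp, 0.77), covered at 83.5% and 71.1%. Genes and sequences under these members were not analysed here.

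The opposite, telomeric ends of the same arms were set beside these values, because they share the position at the edge of an assembled arm. Coverage of the outermost 2 Mb was 8.58% ± 0.15 for 2L, 6.34% ± 0.03 for 3R, 11.1% ± 0.9 for 3L and 12.1% ± 0.9 for X (SD, n = 2). Proximal coverage was 2.04-fold and 2.53-fold the telomeric value on 2L in replicates 1 and 2, and 2.20-fold and 2.58-fold on 3R. On 3L the ratios were 1.09 and 1.61 and on X 1.04 and 1.60, so there the proximal excess over the telomeric end was near 1 in replicate 1.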

How the data were processed

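H3K9me1 was measured by ChIP-seq in 2 ChIP samples, each with its own input as control, per the labels. The submitters' processing notes name Bowtie 0.12.7, a read aligner. The authors deposited 3 lists of enriched regions, 1 per ChIP replicate and 1 combined, on FlyBase release 5 per the file headers. Which caller and threshold made them, and how the lists were combined, is not given in the sources used here. The deposited score per cluster, made by the authors against the input as control, has no stated scale and was treated as a log2 value. It was read as log2 of a ratio, because 2 raised to the score gave a ratio of whole numbers (denominator up to 20000, relative tolerance 1e-12) for 87.0%, 74.8% and 53.2% of 3000 random pairs of clusters in replicate 1, replicate 2 and the combined list, against at most 0.267% for natural log or log10 scales.

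Members and lists were chosen with earlier results of these data known. From the lists were computed covered bases, clusters per Mb, widths, gaps, scores, 100 kb windows, the step (at least 3 windows on each side) and overlaps. Clusters running past an arm's end were cut there for coverage. A cluster belongs to the interval that holds its start. Values are given per replicate, as mean ± SD (n = 2), with no test across positions. The exact sign-flip permutation test over samples was the only test. The regions named are, on each arm, the 2 highest-scoring and the 2 widest members covered over at least 50% by each replicate, the most covered window and the longest stretch without a replicate cluster. The 300 kb stretches, the 2-fold rule for windows, the 7 kb width, the score of 1 and the telomeric ends were added after the data were seen. The calculations were tested on simulated lists of independently placed clusters. There the step position was held to a limit only for a change sharper than the steps fitted here. Positions for a 2-fold change at 2 Mb were simulated too, without such a limit, and are not reported here. The test as reported thus does not show how exact the fitted positions are. Depth is unknown, so no region outside the clusters is shown to lack the mark. Calculations ran in Python 3.11.15 with numpy 2.4.6 and scipy 1.17.1, and figures were drawn with matplotlib 3.10.9.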

Additional observations from a re-analysis of the deposited data

Results flagged for a closer look

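Small differences between proximal and rest pointed in opposite ways on different arms in both replicates, and the difference between arms was not tested. The median score of the proximal 2 Mb minus the rest of the arm was -0.027 in replicate 1 and -0.0099 in replicate 2 on X, and -0.0015 and -0.0095 on 3R. It was 0.012 and 0.012 on 2L and 0.010 and 0.0067 on 3L.

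The median width of the proximal clusters minus that of the rest was -75 bp and -38 bp on X in replicates 1 and 2. It was 131.5 bp and 284 bp on 2L, 74 bp and 80 bp on 3L, and 87.5 bp and 68 bp on 3R. In the combined list the difference on X had the opposite sign, at 55.5 bp, and the differences on 2L, 3L and 3R were 245 bp, 233 bp and 205 bp.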

How the results depend on the processing

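No coverage ratio crossed 1 on 2L, 3L or 3R in any of 6 alternatives. With proximal lengths of 1 Mb and 3 Mb the ratio was 2.74 and 2.32 on 2L, and 2.90 and 1.84 on 3R. Clusters at or above the median score gave 2.93 and 2.47 on 2L and 3R, clusters of at least the median width 3.19 and 2.55, the combined list 2.10 and 1.90, and clusters per Mb 2.23 and 2.04. On 3L and X the ratio moved by less than the SD, and on X it ran from 0.82 (1 Mb) to 1.19 (3 Mb). Without replicate 1 or 2 it ran from 2.54 to 2.69 on 2L, 2.26 to 2.38 on 3R, 1.62 to 2.00 on 3L and 0.80 to 1.15 on X.

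The score difference changed sign on X with 3 Mb (0.0060) and in the combined list (0.0049). With clusters of at least the median width it changed sign on 2L (-0.022), 3L (-0.023) and 3R (0.0046). With 1 Mb it was -0.0030 on X, 0.028 on 2L, 0.027 on 3L and -0.025 on 3R. With 3 Mb it was 0.0038 on 2L and 0.013 on 3L, and in the combined list 0.032 and 0.030. Single replicates ran from -0.027 to -0.0099 on X, 0.0118 to 0.0120 on 2L, 0.0067 to 0.010 on 3L and -0.0095 to -0.0015 on 3R.

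The step of the combined list lay at 4.1 Mb on 2L and 2.4 Mb on 3L. Clusters at or above the median score gave 1.7 Mb on 2L, 1.6 Mb on 3L and 1.5 Mb on 3R, and windows of 50 kb gave 2.325 Mb on 3L and 0.375 Mb on 3R. The share of members touched by both replicates was 19.2% when each had to cover 50%, 48.8% for members at or above the median score and 49.8% for those of at least the median width. Shares under the score and width filters were not computed for the whole list, where support also went with width and score. The cause of these shifts was not tested. No paired analysis was possible because the 2 groups that share replicate numbers are ChIP and input, and no input values were analysed here. The sign-flip test pairs positions within a sample, not samples of those groups. Unknown depth limits what a cluster-free stretch shows.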
